A study of Homo sapiens with 4 samples.

Results

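The ribonuclease genes described here are the RNase A family members RNASE1, RNASE2, RNASE3, RNASE4, RNASE6 and RNASE7, with RNASET2, an unrelated lysosomal ribonuclease of the same cells. They were chosen by gene symbol with results of these arrays known. Where a gene has more than 1 probe set, the rule takes the brightest by mean signal of the 4 arrays, but each measured gene had 1. Of the 7 genes, 5 had a probe set of their own symbol among 17062 protein-coding genes with such a probe set. RNASE3 and RNASE4 were not analysed here.

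The RNA came from MV4-11, an established line of human acute myeloid leukaemia cells of monocytic type with a KMT2A-AFF1 fusion. Each of 4 cultures was transduced with 1 short hairpin RNA and then given 3 µM doxycycline over 24 h, the control included. The hairpins are labelled moderate, profound 1 and profound 2, all aimed at RUNX1, a transcription factor of blood cell development, and control, aimed at luciferase. For profound 1 and profound 2 the target is RUNX1 in the titles and genotypes, which were followed, but RUNX2 or RUNX3 in the description fields. Every hairpin was measured on 1 array and the labels name no batch, so no difference below has a replicate check and no test was made. A culture is bulk RNA, in which fewer cells of a type and less RNA per cell cannot be told apart.

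RNase A family enzymes are small secreted ribonucleases that cut RNA after pyrimidines, and their genes lie in a cluster on chromosome 14. Several serve host defence. RNASE2 and RNASE3 encode the eosinophil-derived neurotoxin and the eosinophil cationic protein, which are stored in eosinophil granules, and RNASE2 is also made by monocytes. RNASE6 encodes RNase k6, an antimicrobial protein of monocytes, macrophages and neutrophils. RNASE1 encodes the pancreatic-type enzyme, which endothelial cells also secrete, and RNASE7 an antimicrobial protein of skin and other epithelia. RNASET2 belongs to another ribonuclease family, works at acid pH in lysosomes, and in human monocytes acts with RNASE2 to release RNA fragments that the receptor TLR8 senses.

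The values are log2 signals. The 4 arrays had medians between 3.07 and 3.09, and the median over the whole table was 3.08, which served as the limit for a dim probe set. A total of 12516 protein-coding genes exceeded it in at least 1 array, and all 5 measured ribonuclease genes were among them. As a yardstick for each level, moderate minus control differences were summarised by their robust SD (a scaled median absolute deviation), which holds noise and any real difference together. It ran between 0.11 log2 units among the brightest and 0.25 among the dimmest of 6 classes of genes. The RUNX1 probe set, shared with LOC100506403, read 4.33 in the moderate, 4.07 in the profound 1 and 4.04 in the profound 2 array, against 4.27 in the control array. These differences from control lay within the yardstick of 0.23 at that level, so the arrays are named by their labels and every direction is a direction between labels.

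RNASE6 was the ribonuclease gene with the widest range over the arrays. It read 8.07 in the moderate array, 7.17 in the profound 1 array and 6.86 in the profound 2 array, against 7.60 in the control array. The moderate array was thus above the control array and both arrays labelled profound were below it. The differences from control were 0.48 log2 units for moderate, -0.43 for profound 1 and -0.74 for profound 2, where the yardstick at this level is 0.13. Of all tested genes, 1.93% were as far up in moderate, 8.32% as far down in profound 1 and 0.36% as far down in profound 2. Expressed as folds, the signal was 1.39-fold higher in the moderate, 1.34-fold lower in the profound 1 and 1.67-fold lower in the profound 2 array than in the control array.

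**Figure D1:**
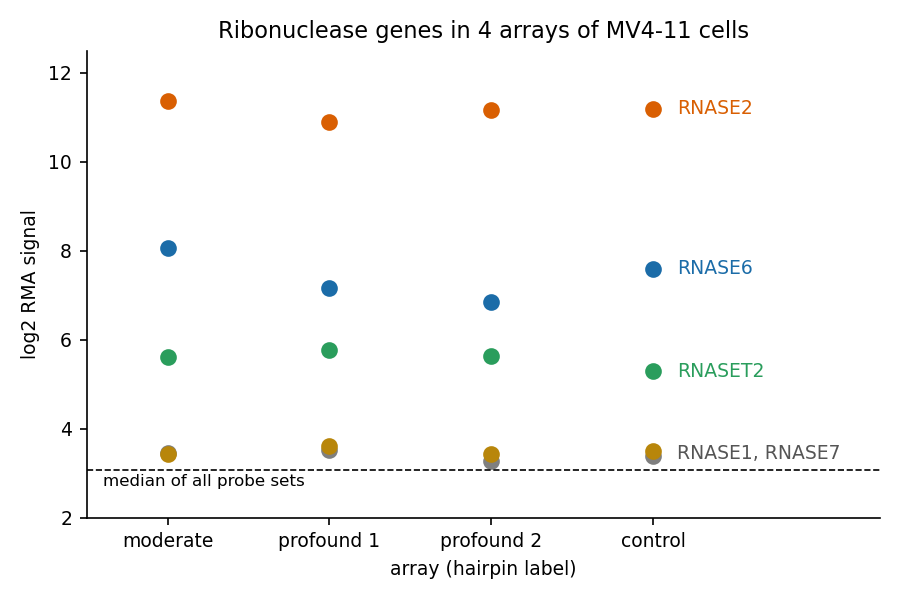
Log2 RMA signal (vertical axis) of 5 ribonuclease genes in the moderate, profound 1, profound 2 and control arrays (horizontal axis), 1 point per array and gene, with no error bars because each hairpin has 1 array. RNASE6 spans 6.86 to 8.07, whereas RNASE1 and RNASE7 stay close to the dashed line at the median of all probe sets. The heights of different genes are not comparable, because they come from different probes.

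Set against the moderate array, which leaves the control array out, RNASE6 was lower by more. Profound 1 minus moderate was -0.90 log2 units, a 1.87-fold lower signal, and profound 2 minus moderate was -1.22, a 2.33-fold lower signal. Only 6 of the 12516 genes, RNASE6 included, lay that far down or further between the profound 2 and moderate arrays. Within the level class of RNASE6, which holds 2086 genes, RNASE6 was the 1 gene that far down. For profound 1 against moderate, 66 of all genes and 15 of its level class lay as far down. Between the arrays labelled profound, RNASE6 was 0.32 log2 units higher in profound 1 than in profound 2, a difference that 1356 genes reached or exceeded in the same direction.

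At a size of 1.5-fold, 0 of the 5 measured ribonuclease genes differed in the moderate array against control, where 1.31% of all tested genes did. In the profound 1 array against control the count was also 0 of 5, beside 6.72% of all tested genes. In the profound 2 array against control 1 of 5 did, RNASE6 on the lower side, beside 2.21% of all tested genes in either direction and 1.01% on the lower side. Against the moderate array, RNASE6 alone passed in profound 1, beside 5.13% of all tested genes (3.48% on the lower side), and in profound 2, beside 2.64% (1.60% on the lower side). Between profound 1 and profound 2 none of the 5 passed, and 5.00% of all tested genes did. At 2-fold, RNASE6 passed in profound 2 against moderate alone, beside 0.232% of all tested genes. The counts describe the arrays and support nothing further.

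The comparisons above share arrays. The pair of profound 1 against moderate and profound 2 against control has no array in common, and RNASE6 was at least 1.5-fold lower in both (-0.90 and -0.74), as were 29 genes in all, 0.232% of those tested. In the other such pair, profound 2 against moderate and profound 1 against control, RNASE6 passed in the first (-1.22) and not in the second (-0.43), and 23 genes passed in both (0.184%).

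**Figure D2:**
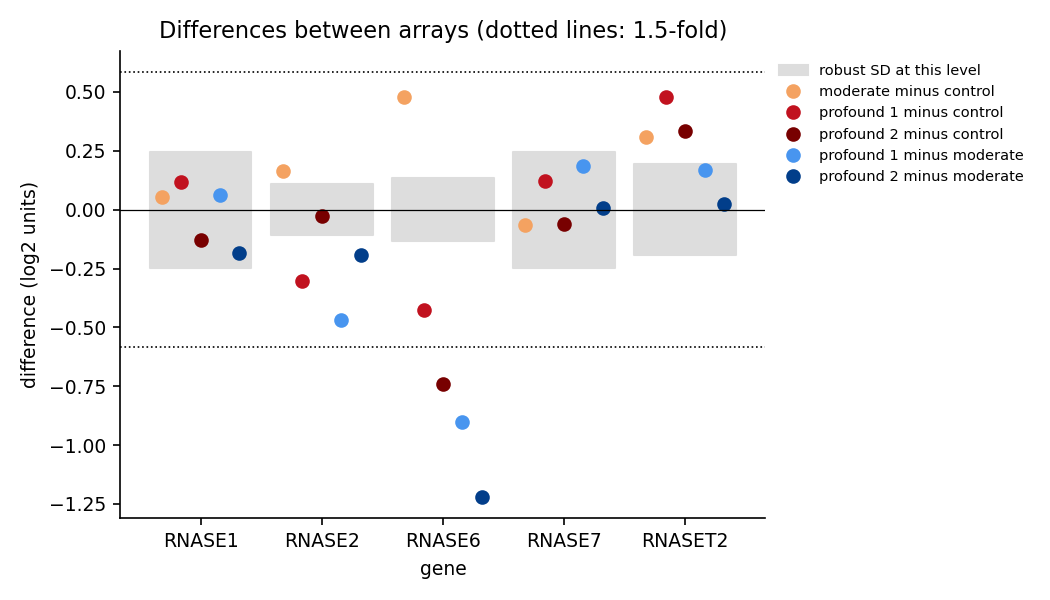
Difference in log2 units (vertical axis) of each ribonuclease gene (horizontal axis) for 3 comparisons with the control array and 2 with the moderate array. Grey boxes show the yardstick, 1 robust SD either side of 0 at the level of the gene, and dotted lines mark 1.5-fold. RNASE6 lies below the lower dotted line at -0.74, -0.90 and -1.22, and no other point passes a dotted line.

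**Figure D3:**
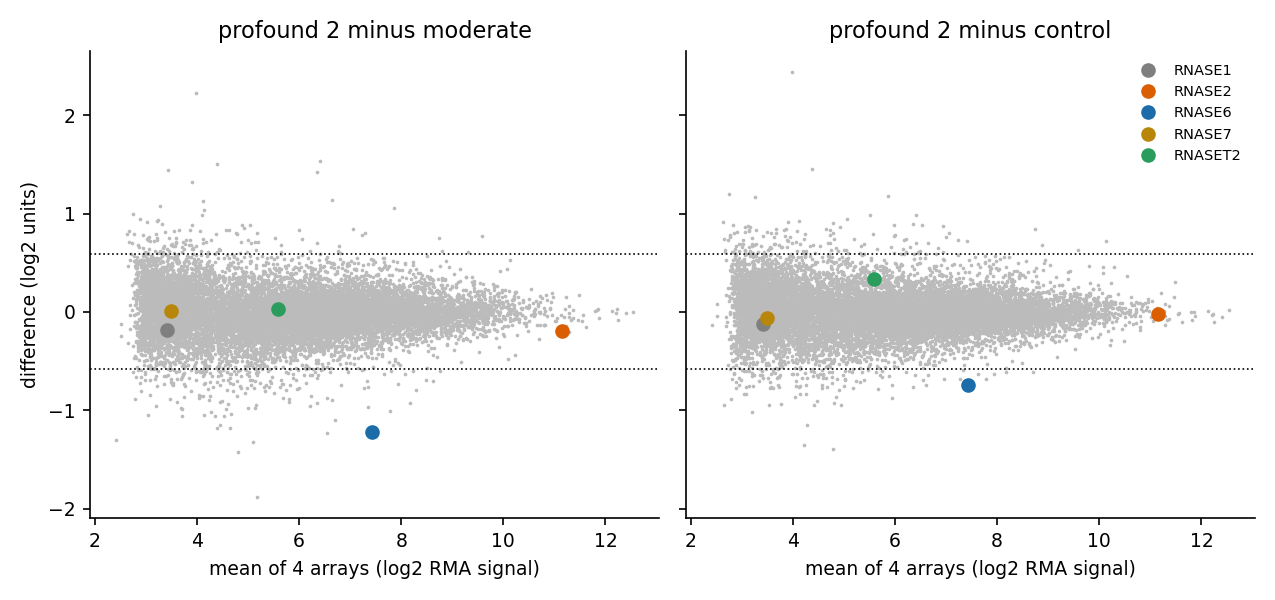
Difference in log2 units (vertical axis) against the mean of the 4 arrays (horizontal axis, log2 RMA signal) for the 12516 tested genes in grey and 5 ribonuclease genes in colour, for profound 2 minus moderate (left) and profound 2 minus control (right), with dotted lines at 1.5-fold. RNASE6 stands at -1.22 and -0.74, below nearly all genes of its level, and the other 4 lie inside the dotted lines.

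RNASE2 was well above the median of the table in every array. It read 11.36 in the moderate, 10.89 in the profound 1 and 11.17 in the profound 2 array, against 11.20 in the control array. The highest reading was again in the moderate array, but the lowest was in profound 1, and profound 2 was next to control. Relative to control these were differences of 0.17, -0.30 and -0.03 log2 units for moderate, profound 1 and profound 2, beside a yardstick of 0.11. Against the moderate array profound 1 was lower by 0.47 and profound 2 by 0.19. All of these stayed short of 1.5-fold, and 14.3% of all tested genes differed downward by that size or more in profound 1 against control. The highest signal in the table was 12.57, and differences close to the upper end of an array can be understated.

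The neighbouring pseudogene RNASE2CP, a copy of an RNase A family gene and named after its values were seen, gave a strong signal too. It read 9.74 in the moderate, 8.94 in the profound 1 and 9.48 in the profound 2 array, against 9.56 in the control array. The arrays stood in the same order as for RNASE2, with a larger difference from control in profound 1 (-0.62). How far the probes of RNASE2, RNASE2CP and RNASE3 read one another's RNA was not tested, so the values of both are those of their probe sets.

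The RNase A cluster was then followed gene by gene. From RNASE10 to RNASE8 the RefSeq annotation places 20 protein-coding genes and RNASE2CP in a row, 13 of them RNase A family genes with angiogenin (ANG) included. Of the 21, 17 had values here, and 8 gave signals above the table median in at least 1 array. These were RNASE6, RNASE1, RNASE2CP, RNASE2, METTL17, SLC39A2, NDRG2 and RNASE7. SLC39A2 passed in profound 1 alone, at 3.12. METTL17, which lies directly after RNASE2 and encodes a mitochondrial methyltransferase-like protein, read 6.60 in the moderate, 6.51 in the profound 1 and 6.48 in the profound 2 array, against 6.57 in the control array. It varied far less over the arrays than RNASE6 did. RNASE8, RNASE9, RNASE10 and RNASE13, of which the last 3 are known mainly from the male reproductive tract, read below the table median in all 4 arrays, as did the probe set shared by RNASE11 and RNASE12. The lowest of these readings was 1.38 (RNASE8, control) and the highest 2.79 (RNASE10, control). ANG and TPPP2 were not analysed here.

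**Figure D4:**
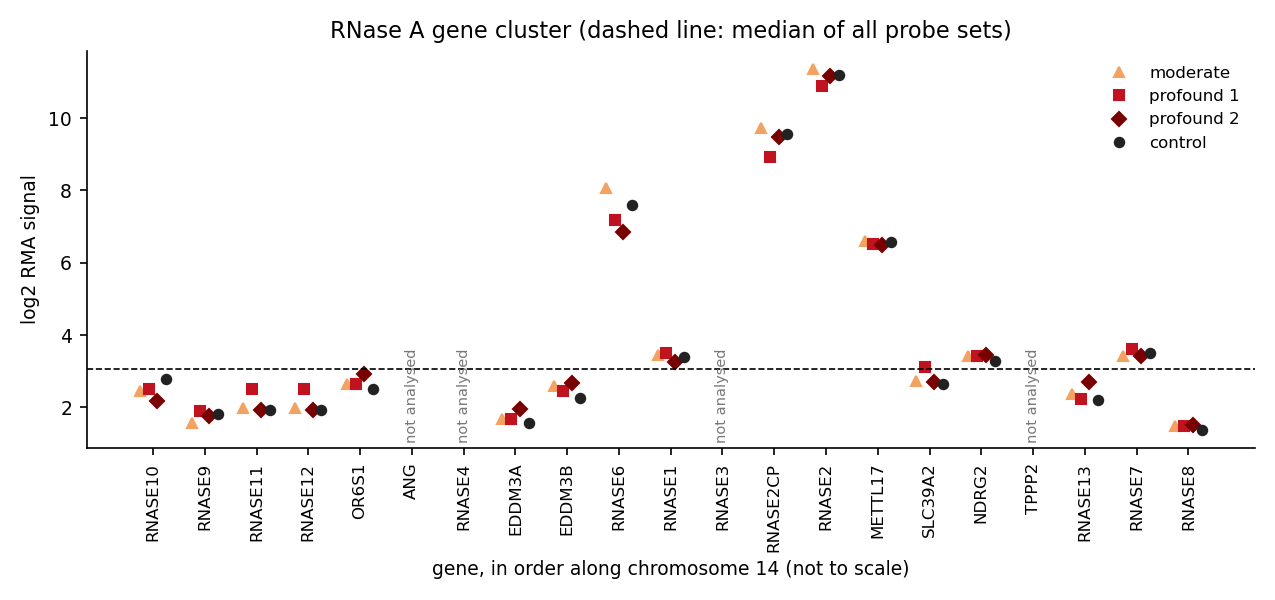
Log2 RMA signal (vertical axis) of the genes of the RNase A cluster in their order along chromosome 14 (horizontal axis, not to scale) in the moderate, profound 1, profound 2 and control arrays. RNASE6, RNASE2CP and RNASE2 stand well above the dashed line at the median of all probe sets and spread between arrays. METTL17 stands above it without such spread, and the other genes with values lie close to the line or below it.

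RNASE1 and RNASE7 were close to the dim limit. RNASE1 read 3.45 in the moderate, 3.52 in the profound 1 and 3.27 in the profound 2 array, against 3.40 in the control array. RNASE7 read 3.43, 3.62 and 3.44 in the same 3 arrays, against 3.50 in the control array. The range over the 4 arrays was 0.25 log2 units for RNASE1 and 0.19 for RNASE7, no larger than the yardstick of 0.25 at their level. Differences of so dim probe sets are also understated by RMA.

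RNASET2 differed in its order of arrays from each measured RNase A family gene, and those genes shared no order among themselves. It read 5.61 in the moderate, 5.78 in the profound 1 and 5.63 in the profound 2 array, against 5.30 in the control array. The control array was the lowest, and the 3 RUNX1 hairpins lay close to one another. Relative to control these were differences of 0.31, 0.48 and 0.33 log2 units for moderate, profound 1 and profound 2, beside a yardstick of 0.19, and none reached 1.5-fold. All 3 share the control array. Against the moderate array, RNASET2 was at 0.17 in profound 1 and 0.02 in profound 2, both within the yardstick. In each comparison with control between 4.86% and 6.68% of all tested genes were higher by at least as much.

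The bases before the start of RNASE2, RNASE3, RNASE6 and RNASET2 are shown to set 3 genes of the cluster beside the unrelated RNASET2, and to show how alike RNASE2 and RNASE3 are. They come from RefSeq (GRCh38.p14), each on the strand of its gene, and all 7 genes had such a window. RNASE2 is at chr14:20955237-20955486 (plus strand), RNASE3 at chr14:20891135-20891384 (plus), RNASE6 at chr14:20781018-20781069 (plus, only the 52 bases before the first annotated base of the gene) and RNASET2 at chr6:166956551-166956800 (minus). Capitals mark the C/EBP word in RNASE2 and RNASE3, the ETS word in RNASE6 and each CG pair in RNASET2.
RNASE2: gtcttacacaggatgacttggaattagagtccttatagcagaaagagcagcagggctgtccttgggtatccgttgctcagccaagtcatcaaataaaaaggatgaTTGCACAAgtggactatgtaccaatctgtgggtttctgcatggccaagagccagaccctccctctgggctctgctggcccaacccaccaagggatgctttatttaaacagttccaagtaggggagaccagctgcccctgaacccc
RNASE3: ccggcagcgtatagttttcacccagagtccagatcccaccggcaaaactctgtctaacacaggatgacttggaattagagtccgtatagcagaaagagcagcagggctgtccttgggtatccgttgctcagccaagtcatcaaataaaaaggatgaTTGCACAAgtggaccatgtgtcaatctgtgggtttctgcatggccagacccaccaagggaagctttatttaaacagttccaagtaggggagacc
RNASE6: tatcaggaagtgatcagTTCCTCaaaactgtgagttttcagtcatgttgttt
RNASET2: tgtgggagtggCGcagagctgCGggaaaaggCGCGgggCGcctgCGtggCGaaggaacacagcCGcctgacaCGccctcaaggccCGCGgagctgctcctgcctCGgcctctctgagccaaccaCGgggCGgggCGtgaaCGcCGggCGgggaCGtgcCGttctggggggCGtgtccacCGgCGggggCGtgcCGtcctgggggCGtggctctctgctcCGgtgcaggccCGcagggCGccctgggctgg

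The windows of RNASE2 and RNASE3, taken over 300 bases with the first 50 after the start, matched at 242 of 249 aligned bases (97.2%), with 102 bases of the pair left unaligned. In the 250 bases before the start RNASE2 held 1 CG pair, RNASE3 5, RNASE6 1 and RNASET2 29, and the median over 35116 RefSeq windows was 11. Other genes of the cluster ranged widely, with 5 and 3 in the windows of RNASE1, 5 in that of RNASE7, and 21 and 2 in those that RNASE4 shares with ANG. In the RNASE6 window only 52 bases lie before the first annotated base of the gene. The other bases counted and searched there lie within the annotated gene. Short words of RUNX, ETS and C/EBP factors were searched on both strands of the 300-base windows, and no matches overlapped in these genes. The C/EBP word TTGCNNAA, which 10.5% of all windows hold, was found 145 bases before the start of RNASE2 and 94 before that of RNASE3, as TTGCACAA in both, and in a window each of RNASE1 and RNASE7. The ETS word GAGGAA, held by 27.9% of all windows, was found in RNASE6, on the minus strand 233 bases before the start that the window uses, and in a window each of RNASE1, RNASE4 and RNASE7. The RUNX words TGTGGT and TGCGGT, held by 19.6% of all windows, were in neither the RNASE2, RNASE3, RNASE6, RNASE7 nor RNASET2 window, and were in 1 window each of RNASE1 and RNASE4. A match is a description of these letters, and a window without one says nothing of binding elsewhere.

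Cell type markers were set beside these genes. Of 6 measured eosinophil markers, only PRG2 exceeded the table median in every array, and PRG3 did in profound 2. The eosinophil peroxidase gene EPX, the Charcot-Leyden crystal gene CLC, SIGLEC8 and the IL-5 receptor gene IL5RA were below it in all 4 arrays, while RNASE2 was strong. Of 6 measured monocyte markers 5 exceeded it in every array, among them the lysozyme gene LYZ and the CSF-1 receptor gene CSF1R, and the exception was CD14, at 2.10 to 2.33. ITGAM (3.78 to 3.89) and FCN1 (3.86 to 4.28) were only little above the table median. The mean log2 level of the monocyte markers was 6.41 in the moderate, 6.53 in the profound 1 and 6.58 in the profound 2 array, against 6.32 in the control array. Neutrophil granule genes had means of 6.97, 7.03 and 7.05 in the same 3 arrays, against 6.81 in the control array. Of 7 tested granule genes 6 were above control in each of the 3 arrays. Of 5 tested monocyte markers 4 were above control in moderate, 4 in profound 1 and 5 in profound 2. These counts all share the control array and include differences within the yardstick, such as MPO in moderate (0.02 beside 0.19). The share of all tested genes above control was not computed. Their median differences from control were 0.006 in moderate, -0.003 in profound 1 and -0.0015 in profound 2. CTSG, the gene of the granule protease cathepsin G, read 10.51 in the moderate, 9.62 in the profound 1 and 10.04 in the profound 2 array, against 10.18 in the control array. As for RNASE6, its moderate array was above control and both arrays labelled profound were below it. Its arrays stood in the same order as those of RNASE2, lowest in profound 1, whereas RNASE6 was lowest in profound 2. RNASE2 in profound 2 was next to control (-0.03). CTSG was the 1 tested granule gene below control in profound 1 and in profound 2. It was also the 1 of 7 past 1.5-fold in profound 1 against moderate (-0.89), where 3.48% of all tested genes were lower. CSF1R was at 0.29 in moderate, -0.11 in profound 1 and 0.16 in profound 2 against control. CD68, a lysosomal glycoprotein gene of macrophages, was the 1 of 5 tested monocyte markers past 1.5-fold against control. It was higher in profound 1 (0.70, beside 2.68% of all tested genes on the higher side) and in profound 2 (0.63, beside 1.20%). The part of these cell programmes in the ribonuclease values was not tested.

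The endolysosomal genes that process or sense nucleic acids are the surroundings in which RNASET2 works. Their list here also holds the lysosomal membrane protein genes LAMP1 and LAMP2 and the acid phosphatase gene ACP2. Of 10 tested genes of that list 3 were at least 1.5-fold higher in profound 1 than in control and none lower, where 2.68% of all tested genes were higher. They were the acid nuclease gene DNASE2 (0.98) and the exonuclease genes PLD4 (0.87) and PLD3 (0.69). None of the 10 passed in the moderate array (0.863% higher among all genes) or in profound 2 (1.20% higher). DNASE2 read 4.60 in the moderate, 5.36 in the profound 1 and 4.57 in the profound 2 array, against 4.38 in the control array, so profound 1 stood apart from the others. PLD4 read 8.71, 9.04 and 8.41 in the same 3 arrays, against 8.18 in the control array.

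The list medians were 0.19, 0.36 and 0.12 log2 units for moderate, profound 1 and profound 2 against control, while the medians over all tested genes were 0.01, 0.00 and 0.00. In profound 1 against profound 2, DNASE2 and PLD4 were at least 1.5-fold higher, 2 of 10 beside 2.06% of all tested genes. SLC29A3, a lysosomal nucleoside transporter gene, read, like RNASET2, lowest in control (7.03 in the moderate, 6.96 in the profound 1 and 7.01 in the profound 2 array, against 6.62 in the control array). So did PLD3, PLD4, DNASE2, ACP2, SIDT2, LAMP1 and LAMP2 of the same list, but not TLR9 or UNC93B1. Some of these differences lay within the yardstick, such as those of LAMP1 in moderate and profound 2 (0.05 each, beside 0.11). All comparisons share the 1 control array, and the share of all tested genes lowest in it was not computed. The RNA-sensing receptor genes TLR7 and TLR8 were below the table median in all 4 arrays, and TLR9 and UNC93B1, which carries these receptors to endosomes, did not differ by 1.5-fold in any array against control.

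**Figure D5:**
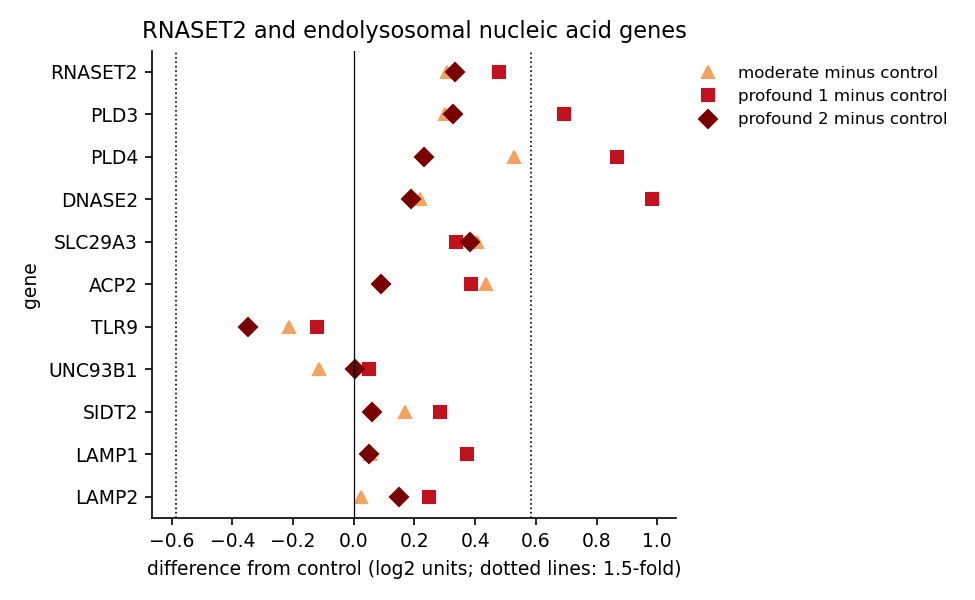
Difference from the control array in log2 units (horizontal axis) of RNASET2 and the 10 tested endolysosomal genes (vertical axis) in the moderate, profound 1 and profound 2 arrays, which all share that control array. Dotted lines mark 1.5-fold. DNASE2, PLD4 and PLD3 pass the right line in profound 1 alone, and RNASET2 stays inside it at 0.31, 0.48 and 0.33.

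RNH1, which encodes the cytosolic inhibitor that binds RNase A family enzymes very tightly, read 9.19 in the moderate, 9.49 in the profound 1 and 9.31 in the profound 2 array, against 9.18 in the control array. Its differences from control were 0.01, 0.32 and 0.14 log2 units. That of profound 1 exceeded the yardstick of 0.11 but not 1.5-fold, and 11.9% of all tested genes were higher by at least as much. Of 20 tested genes of other cellular ribonucleases, such as DICER1, DROSHA and the exonuclease genes XRN1 and XRN2, none reached 1.5-fold in any comparison, where between 1.31% and 6.72% of all tested genes did. For 20 genes, 0 is near those shares. The list medians against control were -0.08 in the moderate, -0.08 in the profound 1 and -0.05 in the profound 2 array. The catalytic RNase H2 subunit gene RNASEH2A, named after its values were seen, was lowest in profound 1 (9.22 in the moderate, 8.73 in the profound 1 and 9.10 in the profound 2 array, against 9.23 in the control array).

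Among all tested genes, the 3 whose profiles centred over the 4 arrays were nearest to that of RNASE6 were LDLRAD4, ACTL10 and LYG1, at root mean square distances of 0.09, 0.09 and 0.10 log2 units. LDLRAD4, a negative regulator gene of TGF-beta signalling, read 4.65 in the moderate, 3.97 in the profound 1 and 3.60 in the profound 2 array, against 4.36 in the control array. LYG1, a g-type lysozyme-like gene, read 4.20, 3.47 and 3.22 in the same 3 arrays, against 3.96 in the control array. With 4 arrays such likeness is a description of these arrays. RUNX3, a RUNX factor of the same family as RUNX1, read 8.28 in the moderate, 7.75 in the profound 1 and 7.74 in the profound 2 array, against 8.17 in the control array, so both arrays labelled profound were below control for it as for RNASE6. The RUNX3 differences from control stayed short of 1.5-fold, and 8.51% of all tested genes were as far down in profound 1 and 2.82% in profound 2. RUNX2 (-0.06 in profound 1 and 0.10 in profound 2) and the RUNX partner gene CBFB (-0.005 and 0.19) were above control in profound 2.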

How the data were processed

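Total RNA of MV4-11 cells was hybridised to 4 Affymetrix whole-transcript arrays, 1 per hairpin. The deposited table holds log2 signals of 53617 probe sets from RMA. Per the submitters' processing notes, the authors' tools were Transcriptome Analysis Console 1.0 and Affymetrix Expression Console 1.3.1. RMA quantile-normalises arrays, so a change in total RNA cannot be seen. The RMA settings and the build used were not given in the sources used here. All columns of values were used (0 unused).

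Groups followed titles and genotypes. Names came from the platform annotation (23871 probe sets with 1 symbol, 1842 with several, 27904 with none listed). Of the symbols, 90 were updated through RefSeq (GRCh38.p14) and 569 did not match it. Tested genes were protein coding, took their brightest probe set and exceeded the table median in at least 1 array. A gene was called at 1.5-fold, with no test. This rule was first tried on simulated arrays. The named genes were the ribonuclease genes, their family and inhibitor, up to 4 genes of a list that passed 1.5-fold against control, and the 3 profiles nearest to each ribonuclease gene that passed, with other list genes given as examples. The members and lists were chosen with earlier results of these data known. Protein comparisons were not made. Markers of erythroid, B, T, endothelial, epithelial and fibroblast cells were also examined. Of their 7 tested genes 1 passed 1.5-fold against control, CD79A (0.60 in profound 1, where 6.72% of all tested genes passed). Alternatives were other filters, folds and probe set rules, median subtraction and cyclic loess (limma 3.58.1, R 4.3.3). Python 3.11.15 was used.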

Additional observations from a re-analysis of the deposited data

Results flagged for a closer look

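RNASE6 is listed because its difference from the control array had opposite signs between hairpins, each beyond the yardstick of 0.13. It was 0.48 log2 units in the moderate array, -0.43 in profound 1 and -0.74 in profound 2. In profound 1, 8.32% of all tested genes were as far down. RNASE2 is listed for the same reason, with 0.17 in the moderate array and -0.30 in profound 1, beyond the yardstick of 0.11. The yardstick comes from moderate minus control. Over all tested genes the robust SD was 0.17 for that comparison and 0.26 for profound 1 minus control. The difference between hairpins was not tested for either gene, because each hairpin has 1 array.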

How the results depend on the processing

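Cyclic loess, subtraction of the median of the tested genes and the mean over probe sets gave 90 values. No difference of a ribonuclease gene moved by more than 0.05 log2 units or across 1.5-fold. The sign turned in 1 case, that of RNASE7 in profound 2 minus moderate, which is near 0. The mean over probe sets could move nothing, because each measured ribonuclease gene had 1 probe set. At 2-fold in place of 1.5-fold, the count of ribonuclease genes became 0 of 5 in profound 2 against control and 0 of 5 in profound 1 against moderate. The counts kept their values under the other alternatives, one of which, genes of any biotype, was chosen after seeing the data. Filters and biotype leave the values of a gene as they are, so under them a count could change only by loss of a gene. With a mean above the 75th percentile 3 ribonuclease genes remained, so the counts there are of 3 and not of 5.

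The counts over all genes were less stable. In the order moderate, profound 1 and profound 2 against control, profound 1 and profound 2 against moderate, and profound 1 against profound 2, they were 164, 841, 277, 642, 330 and 626. They became 33, 555, 77, 373, 103 and 376 with a mean above the 75th percentile of the table, 451, 1244, 627, 1010, 724 and 1051 with no filter and every gene with a single symbol, and 8, 100, 9, 49, 29 and 62 at 2-fold. With genes of any biotype they were 305, 481 and 554 for moderate and profound 2 against control and for profound 2 against moderate. More or fewer dim probe sets enter by construction. No paired analysis was possible because each hairpin has 1 array, and for the same reason no replicate could be left out.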
